A study of Rattus norvegicus with 6 samples.

Results

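The 9 genes described here encode complement components and acute phase proteins: the complement proteases C1r and C1s, the inhibitor Serping1, complement C3, factor B (Cfb) and C6, and the acute phase proteins haptoglobin (Hp), orosomucoid (Orm1) and lipocalin 2 (Lcn2). They were taken by symbol from a deposited table of 18718 genes. All 9 had 1 row each, and 8 passed the filter on low counts, with Serping1 under it. The table holds RNA from HEI-OC1, an established cell line of the organ of Corti, in 2 groups of 3 libraries. The SiHNRNPD libraries came from cells with AUF1 knocked down by an siRNA against Hnrnpd, the gene that encodes the RNA-binding protein AUF1, and the SiNC libraries came from control siRNA cells. Both groups grew in medium with 10% fetal bovine serum. The labels give the organism as rat, although HEI-OC1 is widely described as murine, and reads were assigned to rat gene models, so levels compared between genes carry that limit. The members were chosen by their listed differences between SiHNRNPD and SiNC in these same libraries, so the differences between the groups below are a description of them and support nothing further.

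Complement is a cascade of plasma proteins that marks and lyses microbes and damaged cells. In the classical pathway C1q binds a target, C1r then cleaves C1s, and C1s cleaves C4 and C2 to build an enzyme that splits C3. The alternative pathway uses factor B for the same purpose, and C6 joins the later membrane attack complex. Serping1, the C1 inhibitor, inactivates C1r and C1s. Acute phase proteins are secreted in larger amounts during inflammation, mainly by the liver, under interleukin-6 and interleukin-1 and the transcription factors STAT3, NF-kB and the C/EBP family. Haptoglobin captures free haemoglobin, orosomucoid carries small hydrophobic molecules, and lipocalin 2 binds the siderophores with which bacteria take up iron.

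The 6 libraries held 28984535 to 35842904 gene counts, and 12268 genes were tested. The siRNA target, listed as Hnrpd, had 177, 200.2 and 183 CPM (counts scaled to library size) in SiHNRNPD 1, 2 and 3, against 319, 303 and 269 CPM in SiNC 1, 2 and 3. The log2 change, -0.67 (SE 0.082), passed edgeR's quasi-likelihood test (adjusted p = 0.0426 after Benjamini-Hochberg), and leaving out 1 library gave adjusted p of 0.0458 to 0.319. Hair cell markers were near absent: of 12 names, 8 had a row, and all of these but Myo6 averaged under 1 FPKM. Hepatocyte markers summed to 12.2 to 13.9 FPKM in SiHNRNPD libraries and 12.5 to 13.5 FPKM in SiNC libraries, nearly all of it transferrin (Tf), with albumin (Alb) and transthyretin (Ttr) at 2 counts or fewer in any library. Of the leukocyte markers, Ptprc (CD45) had at most 1 count and Adgre1 at most 2 counts in a library. The summed leukocyte level was 35.4 to 38.0 FPKM in SiHNRNPD and 31.2 to 34.05 FPKM in SiNC, most of it Cd14. Fibroblast markers were far higher, at 2396 to 2984 FPKM in SiHNRNPD and 2449 to 2616 FPKM in SiNC. Most of that was Vim, followed by Col1a1, while 3 of the 10 fibroblast markers averaged under 1 FPKM. Cochlear supporting cell markers, of which 6 of 10 names had a row, summed to 54.4 to 74.1 FPKM in SiHNRNPD and 58.2 to 62.6 FPKM in SiNC. The library SiHNRNPD 3 stood apart in interferon-stimulated genes. Their mean log2 level over 26 tested genes was -0.59, -0.43 and -2.10 relative to the SiNC mean in SiHNRNPD 1, 2 and 3, against -0.16, 0.21 and -0.045 in SiNC 1, 2 and 3. Values without that library are given beside the members' results.

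C1r had the highest level per length of the 9 transcripts, followed in SiNC by Lcn2 and C1s. By the authors' FPKM (a level scaled for transcript length and library depth), C1r stood at 206 ± 33.5 in SiHNRNPD and 274 ± 14.5 in SiNC libraries (SD, n = 3 each), above 97% of tested genes in SiNC. The SiNC means of the next genes down were 97 ± 3.93 FPKM for Lcn2, 88.0 ± 1.6 for C1s, 69.5 ± 2.69 for Hp and 51.7 ± 2.47 for Orm1 (SD, n = 3). Cfb had 23.4 ± 2.55 FPKM, C3 6.46 ± 0.31 FPKM and C6 3.79 ± 0.39 FPKM in SiNC (SD, n = 3). In SiNC no neighbours in this order overlapped over the 3 libraries. In SiHNRNPD the same order was less clear, because the ranges of Lcn2 and C1s, of Hp and Orm1, and of Cfb and C3 overlapped.

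**Figure D1:**
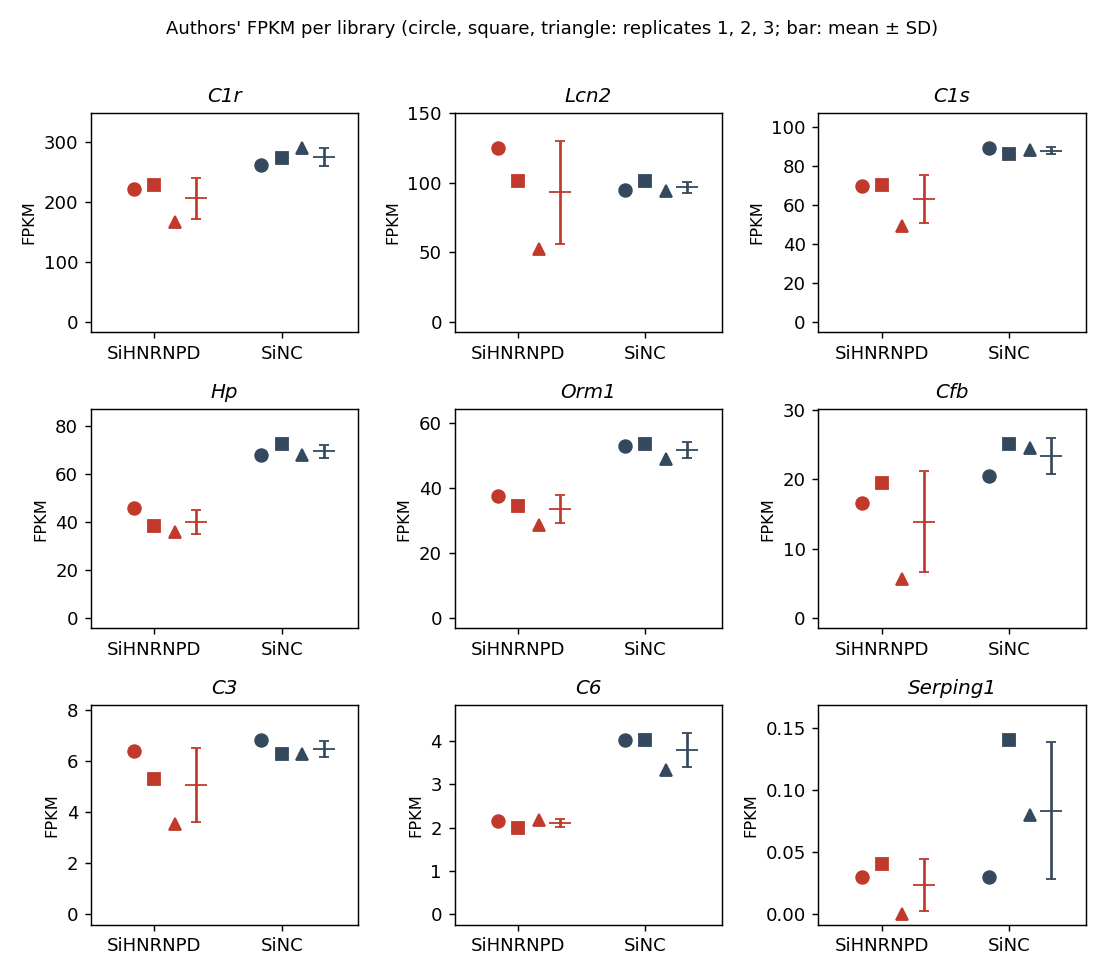
Authors' FPKM (y axis, linear) of each of the 9 genes in the 3 SiHNRNPD libraries (left of each panel) and the 3 SiNC libraries (right), with replicates 1, 2 and 3 as circle, square and triangle and a bar for the mean ± SD. The scale differs between panels: C1r reaches 290.03 FPKM and Serping1 only 0.14 FPKM, and SiHNRNPD 3 is the lowest of the 6 libraries in 7 of the 8 tested genes, C6 being the exception.

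The start regions of the members are shown so that their sequence content can be read beside the values that follow. RefSeq promoter windows (rat build GRCr8, 250 bases before to 50 after the gene start) were matched by symbol for 5 of the 9: Orm1, Lcn2, C1r, C3 and C6. Both strands were searched for 9 patterns of letters linked to the acute phase and interferon responses, with the members and their values known, and all 9 are given here. The stretches printed below were chosen for the pattern TTGCNNAA after its matches had been seen, so its presence in these windows is a description of a selected pattern among 9. The C/EBP letters TTGCNNAA were present in 5 of the 5 windows, against 10.6% of all 33469 windows and 7.97% of the 9579 windows of tested genes. The interferon response element, spelled GAAA, 2 bases of any kind and GAAA, was present in 0 of the 5 (3.92% of all windows), and the STAT letters TTCNNNGAA in 0 of the 5 (8.87% of all). The windows of 19 interferon-stimulated genes held the letters TTGCNNAA in 0 and the interferon response element in 15. In 46 windows of other complement and acute phase genes, the C/EBP letters were present in 5. An NF-kB match was present in 1 of the 5, Lcn2 (4.18% of all windows), and TATAAA in Orm1, 35 bases before the start, and in C6, 22 bases after it (14.2% of all windows). A looser C/EBP spelling, TTNNGNAA, takes in every match of the stricter one when both strands are read. Its presence in 5 of the 5 therefore followed from the stricter one. It was also present in 41.3% of all windows and in 12 of the 19 interferon windows. The shorter interferon element GAAANNGAA, present in 9.71% of all windows, the NF-kB spelling of GGG, 2 bases of any kind and TTTCC, in 1.53% of all, and the forkhead letters TGTTTGC, in 4.88% of all, were each in 0 of the 5. Every match of the longer interferon element is also a match of the shorter one. A match of letters is a description and shows no binding, and these are rat sequences.

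The stretch around each C/EBP match follows on the strand of its gene, with the match in capitals and 12 bases on each side. The match starts 123 bases before the start in Orm1, 191 in Lcn2, 83 in C1r, 104 in C3 and 176 in C6, and in Orm1, C1r and C6 it is read on the opposite strand.
Orm1: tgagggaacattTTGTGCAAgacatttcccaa
Lcn2: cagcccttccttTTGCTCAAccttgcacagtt
C1r: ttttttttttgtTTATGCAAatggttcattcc
C3: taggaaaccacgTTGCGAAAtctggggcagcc
C6: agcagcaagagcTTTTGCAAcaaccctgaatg

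The whole windows of Orm1 and C3 are given as one gene whose groups did not overlap and one whose groups did, again with the C/EBP match in capitals. The Orm1 window is chr5:81788259-81788558 on the plus strand and the C3 window is chr9:2201290-2201589 on the minus strand, both in GRCr8.
Orm1: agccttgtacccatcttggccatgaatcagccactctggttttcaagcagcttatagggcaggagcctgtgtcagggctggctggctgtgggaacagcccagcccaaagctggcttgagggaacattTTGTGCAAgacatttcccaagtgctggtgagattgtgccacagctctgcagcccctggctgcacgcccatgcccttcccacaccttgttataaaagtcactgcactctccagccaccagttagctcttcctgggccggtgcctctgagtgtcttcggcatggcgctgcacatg
C3: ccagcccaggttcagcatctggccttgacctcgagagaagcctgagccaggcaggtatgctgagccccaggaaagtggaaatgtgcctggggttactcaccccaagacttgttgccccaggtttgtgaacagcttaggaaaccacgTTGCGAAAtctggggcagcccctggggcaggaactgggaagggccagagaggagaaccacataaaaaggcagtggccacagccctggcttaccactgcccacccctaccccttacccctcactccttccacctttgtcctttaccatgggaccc

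The comparison of SiHNRNPD with SiNC asks what AUF1 knockdown does to transcript levels in these cells. Each of the 8 tested members had a negative fitted log2 change, with a median of -0.57 (-0.36 without SiHNRNPD 3), against a median of 0.0054 over all genes tested, of which 48.3% were negative. In 6 of the 8 the SiHNRNPD libraries all lay below the SiNC libraries, against 8.57% of all tested genes, and in 0 of the 8 they all lay above, against 8.42%. At an adjusted p under 0.05, edgeR called 2 of the 8, Hp and C6, against 0.0815% of all tested genes in either direction, 0.0571% lower and 0.0245% higher. The others did not pass, with edgeR's adjusted p at 0.070 for Orm1, 0.256 for C1s and 0.264 for C1r. It was 0.460 for Cfb, 0.495 for C3 and 0.944 for Lcn2. C6 lost its call without any 1 library (adjusted p by edgeR of 0.0508 to 0.319), under upper-quartile scaling (0.0507) and under a replicate block (0.138). Hp lost its call without SiHNRNPD 2 or any 1 SiNC library (adjusted p by edgeR of 0.0623 to 0.319) and under the block (0.0688). At an unadjusted p under 0.05, 5 of the 8 were lower, against 5.2% of all tested genes, and 0 higher, against 5.84%. These counts use the contrast by which the genes were listed, and nothing is read from them.

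Among the acute phase proteins, Hp (ENSRNOG00000014964, chromosome 19) had 62.9, 53.3 and 48.3 CPM in SiHNRNPD 1, 2 and 3, against 94.4, 102 and 92.6 CPM in SiNC 1, 2 and 3. The highest SiHNRNPD library lay well under the lowest SiNC library. The SiHNRNPD mean was 56.9% of the SiNC mean, a log2 change of -0.81 (SE 0.098). Orm1 (ENSRNOG00000007886, chromosome 5) had 44.5, 41.3 and 33.4 CPM in SiHNRNPD 1, 2 and 3, against 63.3, 65.1 and 57.7 CPM in SiNC 1, 2 and 3. Its groups also did not overlap, with a SiHNRNPD mean at 64.0% of the SiNC mean and a log2 change of -0.64 (SE 0.11). In both genes SiHNRNPD 1 and 2 were low on their own, so that without SiHNRNPD 3 the log2 changes were -0.74 for Hp and -0.54 for Orm1.

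Lcn2 (ENSRNOG00000013973, chromosome 3) went another way. It had 129.9, 106 and 53.4 CPM in SiHNRNPD 1, 2 and 3, against 99.4, 107 and 97 CPM in SiNC 1, 2 and 3. SiHNRNPD 1 was the highest of the 6 libraries, SiHNRNPD 2 lay within the SiNC range and SiHNRNPD 3 was the lowest. The fitted log2 change was -0.069 with an SE of 0.25, and without SiHNRNPD 3 it was 0.21 with an SE of 0.094, so its sign rests on that library. Per length, Lcn2 transcripts numbered 2.74, 2.65 and 1.47 times those of Hp in SiHNRNPD 1, 2 and 3, against 1.4, 1.4 and 1.39 times in SiNC 1, 2 and 3. The pair of acute phase genes thus kept a near constant ratio in the SiNC libraries and departed from it in SiHNRNPD 1 and 2.

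The proteases of the classical pathway had similar patterns. C1r (ENSRNOG00000011796, chromosome 4) had 715, 744 and 528 CPM in SiHNRNPD 1, 2 and 3, against 851, 898 and 928 CPM in SiNC 1, 2 and 3. C1s (ENSRNOG00000011971, chromosome 4) had 246, 250.2 and 169 CPM in SiHNRNPD 1, 2 and 3, against 318, 311 and 308 CPM in SiNC 1, 2 and 3. In each of the 2 genes no SiHNRNPD library reached the SiNC range, and SiHNRNPD 3 was the lowest. The log2 changes were -0.43 (SE 0.12) for C1r and -0.49 (SE 0.13) for C1s, and -0.30 and -0.34 without SiHNRNPD 3. The C1r to C1s ratio in FPKM was 3.27 ± 0.12 in SiHNRNPD and 3.12 ± 0.18 in SiNC (SD, n = 3 each), so the ratio overlapped between the groups. Both levels were lower in the SiHNRNPD libraries, but neither change passed (edgeR's adjusted p = 0.264 for C1r and 0.256 for C1s). In RefSeq GRCr8 the genes are neighbours with 0 genes listed between them. Their encoded proteins are related in sequence, and whether any reads were split between the genes was not checked.

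Serping1 (ENSRNOG00000007457, chromosome 3), the inhibitor of those proteases, was barely detected. It had 2, 3 and 0 counts in SiHNRNPD 1, 2 and 3, against 2, 10 and 6 counts in SiNC 1, 2 and 3. A count of 0 in SiHNRNPD 3 allows up to 0.0918 CPM (3 counts, counting error only), so a difference was not detectable at this depth. In reads assigned to rat gene models, the proteases were abundant and their main inhibitor was near the detection limit in both groups. Such a comparison between genes carries the limit given at the start.

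C3 (ENSRNOG00000046834, chromosome 9), the component on which the pathways converge, had 38.8, 32.3 and 20.9 CPM in SiHNRNPD 1, 2 and 3, against 41.6, 38.9 and 37.6 CPM in SiNC 1, 2 and 3. SiHNRNPD 1 lay within the SiNC range and the other two below it. The log2 change was -0.36 (SE 0.18), and -0.16 without SiHNRNPD 3. Cfb (ENSRNOG00000000419, chromosome 20), the alternative pathway protease, had 64.9, 77.2 and 21.8 CPM in SiHNRNPD 1, 2 and 3, against 80.9, 101 and 95.3 CPM in SiNC 1, 2 and 3. The groups did not overlap, but SiHNRNPD 2 lay just under SiNC 1 and SiHNRNPD 3 was far below every other library. The log2 change of -0.76 had an SE of 0.35, the widest of the 8 tested members, and was -0.39 (SE 0.11) without SiHNRNPD 3. C6 (ENSRNOG00000024115, chromosome 2), of the membrane attack complex, had 7.51, 7.06 and 7.47 CPM in SiHNRNPD 1, 2 and 3, against 14.2, 14.4 and 11.6 CPM in SiNC 1, 2 and 3. The 3 SiHNRNPD libraries were nearly equal, at 54.9% of the SiNC mean. The log2 change was -0.86 (SE 0.12), the most negative of the 8 members, and -0.89 without SiHNRNPD 3.

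The members therefore differed in how SiHNRNPD 3 compared with the other SiHNRNPD libraries. The log2 level in SiHNRNPD 3 minus the mean of SiHNRNPD 1 and 2 was 0.036 for C6, -0.26 for Hp and -0.36 for Orm1. It was -0.47 for C1r, -0.56 for C1s, -0.76 for C3, -1.14 for Lcn2 and -1.70 for Cfb. Over all tested genes this gap had a median of -0.00033, with 5% of genes below -0.45 and 5% above 0.44, so C6, Hp and Orm1 lay inside that range and the other 5 outside it. The 26 interferon-stimulated genes had a median gap of -1.38, and the part of the interferon-related shift in the members' values was not tested.

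**Figure D2:**
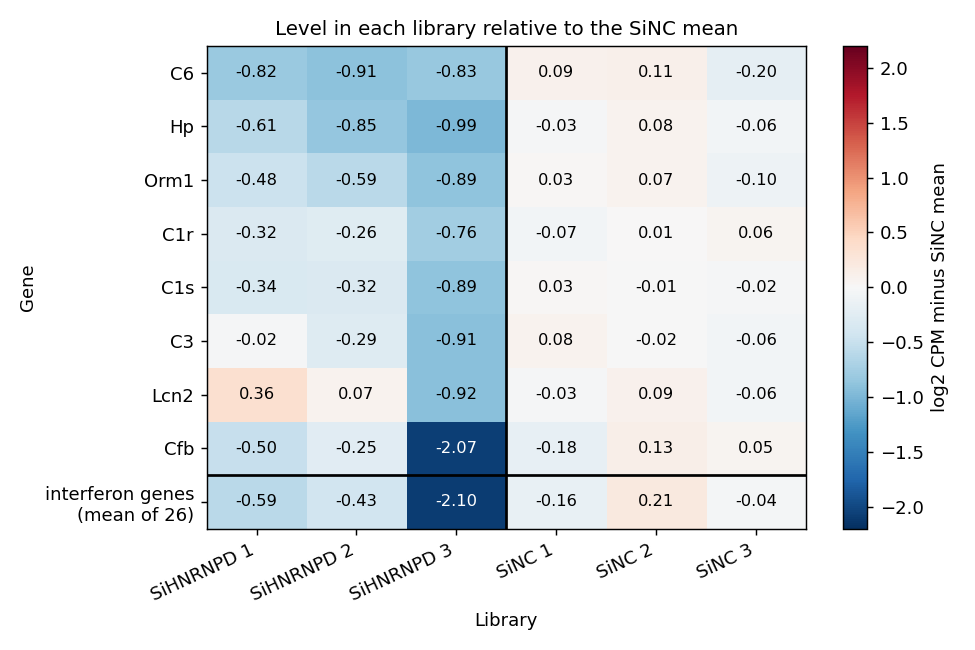
Log2 CPM in each library (columns, SiHNRNPD left of the line and SiNC right) minus the SiNC mean for the 8 tested members and, in the bottom row, the mean of 26 interferon-stimulated genes; blue is lower and red higher. C6, Hp, Orm1, C1r, C1s and Cfb lie below every SiNC library in all 3 SiHNRNPD libraries. Cfb is at -0.50 and -0.25 in SiHNRNPD 1 and 2 and at -2.07 in SiHNRNPD 3, where the interferon genes are at -2.10. Lcn2 is at 0.36 in SiHNRNPD 1 and -0.92 in SiHNRNPD 3.

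**Figure D3:**
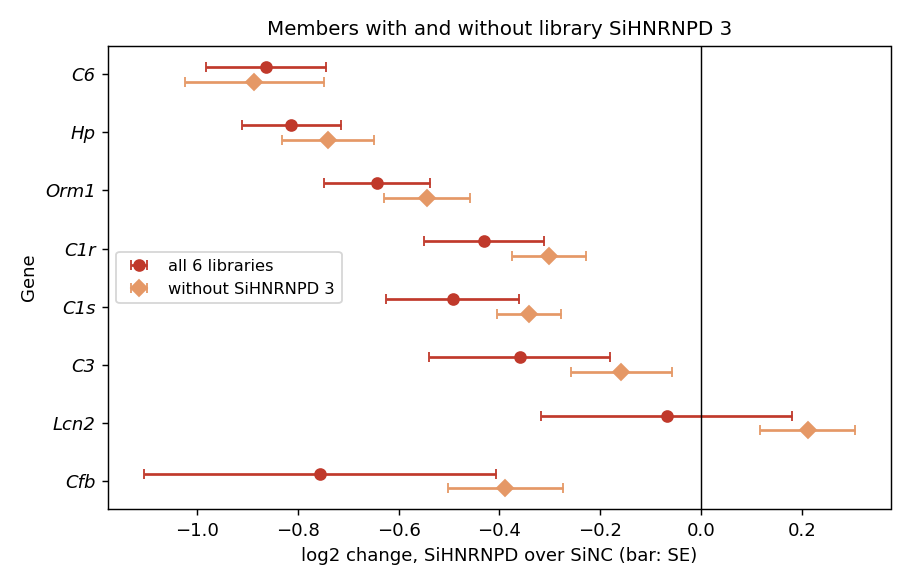
Fitted log2 change of SiHNRNPD over SiNC (x axis, bars are the SE) for the 8 tested members with all 6 libraries (circles) and without SiHNRNPD 3 (diamonds). Hp, Orm1 and C6 shift by little, Cfb goes to -0.39 and Lcn2 passes to the other side of 0.

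The genes whose profiles over the 6 libraries were nearest to the mean profile of the 8 members were sought among 9168 tested genes with at least 5 CPM. This mean joins members with unlike values in SiHNRNPD 3, from a gap of 0.036 for C6 to -1.70 for Cfb. It therefore need not describe any 1 member. Because the members were chosen by this contrast, nearness to their mean is a description, and shared regulation was not tested. The nearest was Stat2, a signalling factor of the interferon response, with a root mean square difference of 0.070 log2 units. Rnf213, an interferon-inducible ubiquitin ligase, followed at 0.074, then Mitd1 at 0.087, haemopexin (Hpx) at 0.091 and Il18bp, the interleukin-18 binding protein, at 0.092. Hpx is itself an acute phase protein that binds free haem, alongside haptoglobin. The nearest profiles to Hp alone were those of Tgm2, transglutaminase 2, at 0.11, Ampd3, an AMP deaminase, at 0.14 and Mcpt8l2 at 0.16. The nearest 5 to the members' mean depended on SiHNRNPD 3, and the nearest 3 to Hp depended on it in part. A comparison over the other 5 libraries was added after the data were seen. In it, 0 of the 5 genes nearest to the members' mean stayed among the nearest 5. Their ranks ran from 15 (Rnf213) and 41 (Stat2) to 107 (Il18bp) of 9168, and Rbm43 was nearest at 0.026. The 3 nearest to Hp moved less, with Ampd3 at rank 3, Tgm2 at rank 4 and Mcpt8l2 at rank 6. XAF1 was then nearest to Hp, at 0.11.

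Other genes of these pathways were examined through 8 lists with 125 further names, of which 94 had a row and 68 rows were tested. Called by edgeR at an adjusted p under 0.05 were 0 of the 68, against 0.0815% of all tested genes. At an unadjusted p under 0.05, 1 was above and 9 below, against 5.84% and 5.20% of all tested genes. The median log2 change of the 68 was -0.037, near the 0.0054 of all genes. DESeq2, run over 97 rows of these lists, called 2 lower, Cp and Irf1, and it called 107 lower of 18718 genes.

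Upstream of C3, the C1q chain gene C1qa had 2 counts in SiHNRNPD 2 and 0 counts in the other libraries, and C4a and C4b averaged under 1 FPKM. C2, the substrate of C1s, was abundant and lies next to Cfb on chromosome 20, with 0 genes listed between them in RefSeq. Its main row (ENSRNOG00000051158) had 86.2, 93.7 and 24.9 CPM in SiHNRNPD 1, 2 and 3, against 105, 137 and 126 CPM in SiNC 1, 2 and 3. That is the order seen for Cfb, with SiHNRNPD 3 far below the rest, and the edgeR log2 value of -0.84 (SE 0.37) did not pass (adjusted p = 0.447), with -0.46 (SE 0.11) without SiHNRNPD 3. The Cfb to C2 ratio in FPKM was 0.74, 0.81 and 0.86 in SiHNRNPD 1, 2 and 3, against 0.75, 0.72 and 0.74 in SiNC 1, 2 and 3, so it varied far less than either level. A second C2 row (ENSRNOG00000051235) had 12 ± 6.29 CPM in SiHNRNPD and 18.8 ± 1.05 CPM in SiNC (SD, n = 3 each). Whether reads were shared between the C2 rows and Cfb was not checked. Of the 7 tested further rows of the classical and lectin pathways, which count C2 under both its rows, 6 had negative log2 values (48.3% of all tested genes). Of these 7 rows edgeR called 0 (0.0815% of all), with 1 lower at an unadjusted p under 0.05 (5.2% of all). Colec12, a scavenger receptor of the collectin family, had the highest FPKM of them and a log2 value of -0.11 (edgeR's adjusted p = 0.643).

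Of the alternative and terminal components, properdin (Cfp), which stabilises the C3 convertase, had 4.29 ± 0.25 CPM in SiHNRNPD and 3.37 ± 0.86 CPM in SiNC (SD, n = 3 each; edgeR's adjusted p = 0.527). Factor D (Cfd), which cleaves factor B, had a log2 value of -0.11 and C8g, a subunit of the membrane attack complex, one of 0.15 (edgeR's adjusted p = 0.853 and 0.802). C5, listed as Hc, and C7 and C9 had at most 3 counts in any library, so C6 was measured without detectable C7 or C9. Among 8 tested further regulators edgeR called 0 (0.0815% of all tested genes), with 1 lower at an unadjusted p under 0.05 (5.2% of all). Clusterin (Clu), a chaperone that also restrains the membrane attack complex, had 1359 ± 97.3 CPM in SiHNRNPD and 1560 ± 110.3 CPM in SiNC (SD, n = 3 each), with overlapping groups and a log2 value of -0.20 (edgeR's adjusted p = 0.430). Cd59, which blocks assembly of the membrane attack complex, had a log2 value of -0.24 (edgeR's adjusted p = 0.684). Of 4 tested receptors, C5ar2, a receptor for C5a, had 1.49, 1.42 and 1.44 CPM in SiHNRNPD 1, 2 and 3, against 0.83, 0.74 and 1.08 CPM in SiNC 1, 2 and 3. The groups did not overlap, and the log2 value of 0.70 (SE 0.22) did not pass (edgeR's adjusted p = 0.322). Cd93, a receptor once described as one for C1q, had 1.54 ± 0.38 CPM in SiHNRNPD and 1.98 ± 0.85 CPM in SiNC (SD, n = 3 each; edgeR's adjusted p = 0.726).

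Among 12 tested rows of further positive acute phase proteins, edgeR called 0 (0.0815% of all tested genes). At an unadjusted p under 0.05, 2 were lower (5.2% of all). These 2 were ceruloplasmin (Cp), the copper-carrying ferroxidase, and Hpx. Cp had 119, 137 and 123 CPM in SiHNRNPD 1, 2 and 3, against 176, 165 and 147 CPM in SiNC 1, 2 and 3. Its groups did not overlap, and the log2 value was -0.36 (SE 0.086; edgeR's adjusted p = 0.198). Hpx had 6.30 ± 1.36 CPM in SiHNRNPD and 9.27 ± 0.12 CPM in SiNC (SD, n = 3 each). Its difference, -0.56 on the log2 scale and -0.41 without SiHNRNPD 3, did not pass (edgeR's adjusted p = 0.273 and 0.285). Il1rn, the interleukin-1 receptor antagonist and the most abundant of the list, had a log2 value of -0.21 (edgeR's adjusted p = 0.452). The liver's negative acute phase protein transferrin (Tf) had 47.5 ± 4.44 CPM in SiHNRNPD and 46.5 ± 1.32 CPM in SiNC (SD, n = 3 each). Of the partners of the acute phase members, Hmox1, the enzyme that degrades haem, had a log2 value of 0.074, and the endocytic receptors Lrp2 and Lrp1 had 0.24 and 0.042 (edgeR's adjusted p = 0.776, 0.583 and 0.908).

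The list of acute phase signalling genes (interleukin-6, interleukin-1, STAT, C/EBP and NF-kB) gave 27 tested rows, with 0 called by edgeR (0.0815% of all tested genes). At an unadjusted p under 0.05, 5 of the 27 were lower, against 5.2% of all tested genes. Irf1, an interferon-induced transcription factor, had 77.5, 78.0 and 64.1 CPM in SiHNRNPD 1, 2 and 3, against 93.1, 104 and 105 CPM in SiNC 1, 2 and 3. All 3 SiHNRNPD libraries lay below the SiNC libraries, and the log2 value of -0.46 (SE 0.091) did not pass (edgeR's adjusted p = 0.133). Il6r, a receptor chain for interleukin-6, had 11.2 ± 0.72 CPM in SiHNRNPD and 14.2 ± 0.34 CPM in SiNC (SD, n = 3 each; log2 value -0.34, edgeR's adjusted p = 0.285). Nfkbia, the inhibitor of NF-kB, had a log2 value of -0.22 (edgeR's adjusted p = 0.323). Cebpb, the C/EBP factor of the acute phase response, had 440, 395 and 381 CPM in SiHNRNPD 1, 2 and 3, against 280, 329.6 and 407 CPM in SiNC 1, 2 and 3. Its groups overlapped, and the log2 value of 0.26 (SE 0.12), opposite in sign to the members, did not pass (edgeR's adjusted p = 0.476).

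**Figure D4:**
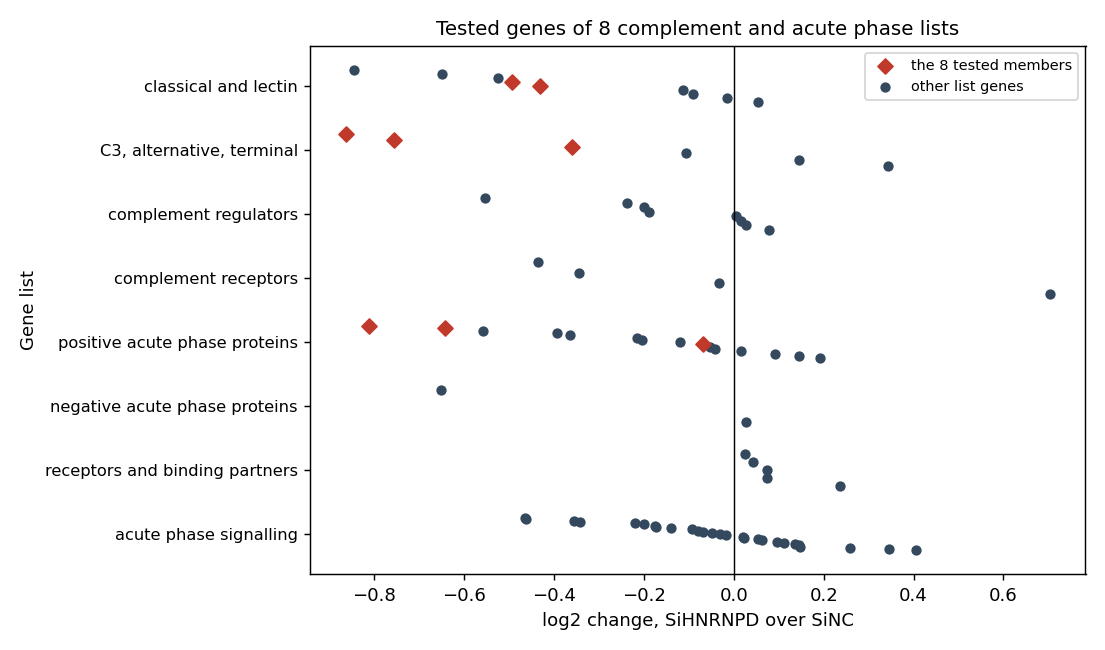
Fitted log2 change of SiHNRNPD over SiNC (x axis) for each tested gene of the 8 complement and acute phase lists (rows), with the 8 tested members as red diamonds and the other genes as dark circles. The other genes centre near 0 with a median of -0.037, with the C2 rows at -0.84 and -0.65 and C5ar2 at 0.70 at the edges.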

How the data were processed

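RNA from 6 libraries of HEI-OC1 cells was read as 150 nt paired ends, per the labels' protocols. The authors used TopHat2 and the build mRatBN7.2, per the submitters' processing notes, while contig names in the tables belong to another rat assembly, so no coordinates of the counted genes are given. Counting tool, strand setting and annotation: not given in the sources used here, so reads of antisense or overlapping genes may be mixed. One deposited table holds raw read counts for 18718 genes, and another the authors' FPKM for 18628 genes, rounded to 2 decimals. Columns were matched to samples by siRNA name and replicate number, with 0 left over.

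Counts were tested with edgeR 4.0.16 (R 4.3.3): TMM scaling, filterByExpr, the quasi-likelihood test on group alone, and p adjusted over 12268 genes by Benjamini-Hochberg. CPM uses library sizes after TMM scaling, and log2 CPM a prior count of 2. Alternatives were DESeq2 1.42.0, limma 3.58.1 (voom, and log2(FPKM + 1) or log2(FPKM + 0.1)), other scalings and filters, a replicate block and leaving out each library. On the FPKM scale the pseudocount understates changes of low genes. The DESeq2 totals take in every gene with a count, and its default filtering may have left low genes such as Serping1 without an adjusted p. Tests were checked on simulated counts with known changes. At an adjusted p under 0.05, 7.81% of the calls were false with edgeR and 12.9% with DESeq2. No shift of a single library, such as that of SiHNRNPD 3, was simulated. The members and lists were chosen with earlier results of these data known. Named genes are Hnrnpd, the members, in each list the genes called or else the 3 with the smallest p at 1 CPM or more plus the one highest by FPKM, and the nearest profiles; genes at or near 0 counts, C4a and C4b were added after their values were seen. A gene that this rule takes is not reported here. The labels do not say whether replicates came from separate cultures, so p-values reflect only library-to-library spread, possibly technical. Fewer cells expressing a gene and less RNA per cell cannot be told apart in these data. RefSeq symbols of GRCr8 gave Hc for C5, Hba1 for Hba-a1 and Hnrpd for Hnrnpd.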

Additional observations from a re-analysis of the deposited data

How the results depend on the processing

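The sign of each tested member's log2 change was the same in all 16 alternatives for C1r, C1s, C3, C6, Cfb, Hp and Orm1, and in 15 of 16 for Lcn2. Leaving out 1 library gave -0.92 to -0.74 for Hp, -0.96 to -0.81 for C6 and -1.09 to -0.39 for Cfb. C6 moved to -0.62 on log2(FPKM + 1), by the construction of that scale. Of the members, 5 of 9 were called with DESeq2 and with no filter on low counts, where Serping1 is counted too. Of 8 tested, 1 was called on log2(FPKM + 0.1) and under upper-quartile scaling. On log2(FPKM + 1) 0 members were called with a minimum (8 tested) or without (9 tested), where 6 and 5 had an unadjusted p under 0.05. Without 1 library 0 to 1 were called, with 0 without any 1 of the SiNC libraries or without SiHNRNPD 2, where 5 to 6 had an unadjusted p under 0.05. Over all genes, 10 of 12268 were called, against 162 of 18718 with DESeq2, 147 of 18718 with no filter and 6 of 12268 with upper-quartile scaling. On log2(FPKM + 0.1) 5 of 10212 were called. On log2(FPKM + 1) 0 were called with a minimum (10212 tested) or without (18628 tested), where 1157 and 1604 had an unadjusted p under 0.05. From 0 to 14 were called without 1 library. Of the further pathway genes, 0 of 68 tested rows were called, against 2 of 97 with DESeq2 and with no filter. Hnrnpd was past the threshold at -0.67 but not on log2(FPKM + 1), at -0.65 with or without a minimum, and leaving out 1 library gave -0.74 to -0.63. With the replicate number as a replicate block, 0 of the 8 members and 0 genes in all were called (7 and 1062 at an unadjusted p under 0.05) and Hnrnpd was at -0.67. Same-numbered libraries deviated from their group means with correlations of -0.26, 0.14 and 0.10 over 12268 genes, so the numbers were not taken to pair libraries. Between different numbers the correlations ran from -0.33 to 0.23. In a chi-square of counts per degree of freedom (lower is more alike), SiHNRNPD 1 gave 21.8 with SiNC 3 and 26.1 with SiHNRNPD 2. SiHNRNPD 2 gave 15.6 with SiNC 2. For SiHNRNPD 3 and each SiNC library the lowest value was within its own group. The causes were not tested. Depth did not allow a comparison of Serping1.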
